A study of Mus musculus with 2 samples.

Results

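Mrc1 encodes the macrophage mannose receptor (CD206), and its nascent transcription was followed from the 5′ to the 3′ end of the gene in mouse bone marrow-derived macrophages (BMDMs). The gene (ENSMUSG00000026712.3) lies on the plus strand of chromosome 2 at 14229392 to 14332057 in mm10 (GRCm38), spans 102666 bp and has 30 exons and 29 introns. Its members are called transcripts, the stretches of run-on signal on 1 strand that are listed with a position and a score, here termed segments. A segment was taken when the deposited annotation named it Mrc1 or when it lay within these bounds on the plus strand. This gave 118 of 94487 segments, 21 of 43122 in control and 97 of 51365 after IL-4. Mrc1 was chosen by its segment scores in control and after IL-4, known from earlier results of the same data, so its own values are given as a description, with no test.

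Nascent RNA was measured by GRO-seq, in which engaged polymerases in isolated nuclei extend their RNA with a bromine-labelled nucleotide that allows the new RNA to be captured and sequenced. The cells were wild-type mouse BMDMs, taken from animals of 8 to 12 weeks and grown for 6 days in L929 supernatant, a source of M-CSF, on which macrophages depend. Control cells had no further cytokine, and the others had 20 ng/ml IL-4 for 1 hr. Duplicate run-on reactions were pooled before about 100 ng of RNA entered each library. There was thus 1 library per condition (n = 1), the labels do not give the number of cultures or animals behind it, and no replicate error can be given for any value below. The errors given are rounding ranges: each score was deposited to 1 decimal and is known to within 0.05.

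The mannose receptor is an endocytic C-type lectin that binds mannose, fucose and N-acetylglucosamine on microbial and host glycoproteins and carries them into endosomes. It is widely used as a marker of alternatively activated macrophages, the state that IL-4 induces through its receptor and the transcription factor STAT6. An intron of Mrc1 also holds the microRNA gene Mir511, so that a polymerase crossing the gene transcribes the hairpin as well. In run-on data, introns and exons are both seen, because the RNA is caught before it is spliced.

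The sequences at the 5′ end and at the microRNA locate the gene's annotated products on the signal. The 250 bases before the RefSeq start of Mrc1 (chr2:14229164-14229413, plus strand, GRCm38.p6) are shown because the first segment of both libraries begins in their last bases. The capitals mark TTCCTC, the reverse complement of GAGGAA, the core recognised by PU.1 and other ETS factors.
Mrc1 promoter: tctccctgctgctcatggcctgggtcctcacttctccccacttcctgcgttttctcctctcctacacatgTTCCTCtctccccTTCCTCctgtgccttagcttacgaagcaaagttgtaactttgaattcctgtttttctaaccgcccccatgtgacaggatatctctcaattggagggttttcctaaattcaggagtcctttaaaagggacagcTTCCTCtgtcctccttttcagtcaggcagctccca

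Searched on both strands, GAGGAA matched 3 times, at -180, -167 and -35 from the RefSeq start, and at least 1 match was present in 23.3% of 32851 mouse promoters of the same length. CCAAT matched once, on the minus strand at -80 (33.8% of promoters). TTCNNNNGAA and TTCNNNGAA, spacings of the STAT site, had no match in this window and were present in 5.85% and 7.02% of promoters. TGANTCA and TATAAA had none either, against 6.75% and 12.4%. These matches describe letters only.

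The mature product of Mir511 that RefSeq lists at the 3′ arm is mmu-miR-511-3p (chr2:14261051-14261072, plus strand), shown with its seed, bases 2 to 8, in capitals. Of 1738 mature mouse miRNAs in the table, 1 carried this seed, the miRNA itself.
mmu-miR-511-3p: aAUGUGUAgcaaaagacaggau

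Summed over the gene, score times segment length was 2602.4 in control (rounding range 2362.55 to 2842.25) and 50619.9 after IL-4 (47956.75 to 53283.05). The ratio was 19.5 (16.9 to 22.6). Over the 7307 genes with segments in both libraries the median ratio was 1.07, and relative to that median gene Mrc1 was 18.1-fold higher after IL-4 (15.7 to 21.03), or 4.18 on the log2 scale. At the same centred scale, 1273 genes (17.4%) were at least 2-fold higher and 1275 (17.4%) at least 2-fold lower. Mrc1 ranked 22 of 7307 by this ratio. Its share of all score times length outside the ribosomal precursor Rn45s and the mitochondrial genome was 0.0312% in control and 0.572% after IL-4.

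Both the covered length and the mean score were higher after IL-4, the latter depending on the filter. Segments covered 4797 bp (4.67%) of Mrc1 in control and 53203 bp (51.8%) after IL-4, an 11.1-fold difference. The mean score of a covered base was 0.543 in control and 0.951 after IL-4, a ratio of 1.75 (1.52 to 2.03). With segments scoring at least 0.3 the ratio of mean scores was 1.04 and that of covered lengths 21.7. Without repeat-annotated segments they were 1.10 and 15.4. The score filter cuts on the value being averaged and keeps 11 of 21 control segments but 79 of 97 IL-4 segments. It thus raises the control mean more, which lowers the ratio of mean scores. The repeat filter removes the highest IL-4 segment (score 13.1) and keeps its control counterpart (2.7), which lowers the ratio of mean scores. The unfiltered mean hides unequal bases, since many IL-4 segments of low score lay where control had none. On the 4532 bp covered in both libraries, which were 94.5% of the bases covered in control and 8.52% of those covered after IL-4, the mean score was 0.562 and 2.69, a ratio of 4.78 (4.31 to 5.35). On the remaining bases covered after IL-4 the mean score was 0.790.

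Segments were called in each library on its own, and the calls differed over the whole libraries too. The median segment length was 227 and 312 bp in the control and IL-4 library, whose segments covered 10.8 and 18.5 Mb. Within Mrc1 the median control segment measured 224 bp (64 to 517 bp) and the median IL-4 segment 483 bp (136 to 1613 bp), and 8 IL-4 segments but 0 control segments reached 1000 bp. The median score in the gene was 0.3 in control and 0.5 after IL-4, while the library medians were 0.3 and 0.2. A score of at least 1 was found for 2 of 21 control segments (9.52%, against 7.33% of the library) and for 19 of 97 IL-4 segments (19.6%, against 3.85%). The part of library depth and of segment calling in these differences was not tested.

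**Figure D1:**
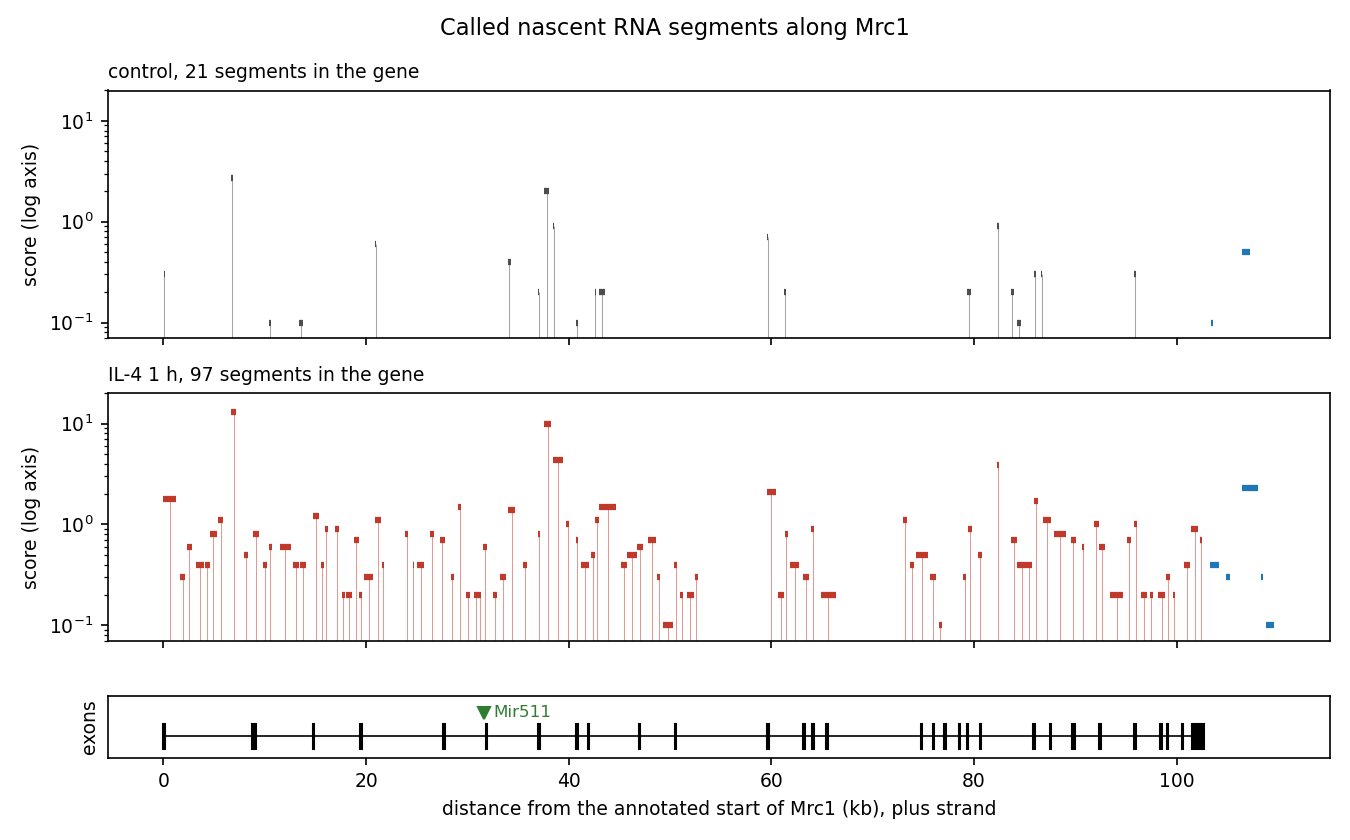
Score (log axis) of every called segment of Mrc1 against distance from the gene start in kb, for control and for IL-4 1 hr, with the exons drawn beneath. Each horizontal bar spans 1 segment, the thin line marks its middle, blue bars lie beyond the annotated end of the gene, and a triangle marks Mir511. Short exons are widened to be visible. The highest segment scored 2.7 in control and 13.1 after IL-4. The largest stretch without a segment measured 17883 bp for control and 6809 bp for IL-4.

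At the 5′ end, the first control segment started 17 bp after the annotated start, measured 159 bp (14229409 to 14229567) and scored 0.3. The first IL-4 segment started 2 bp after the annotated start, ran for 1231 bp (14229394 to 14230624) and scored 1.8. Called signal thus began close to the annotated start in both libraries and reached further into intron 1 after IL-4. No plus-strand segment was called in the 50 kb before the gene in either library, and 0 minus-strand segments overlapped the gene.

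The highest score of the gene lay in intron 1 in both libraries, 6.683 kb from the start. It was 2.7 in control over 235 bp (14236075 to 14236309) and 13.1 after IL-4 over 511 bp (14236073 to 14236583). The IL-4 segment was annotated as an MTD repeat, of the LTR class, and the shorter control segment was not annotated as a repeat. The IL-4 segment ranked 67 of the 51365 IL-4 segments by score, where the control segment ranked 486 of 43122.

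Intron 7 held the next cluster. Its first segment scored 2.0 over 425 bp in control and 10.0 over 678 bp after IL-4 (14266991 to 14267668). The next one, starting 38.453 kb from the gene start in control, scored 0.9 over 127 bp in control and 4.4 over 976 bp after IL-4. The intron 1 segment and the first intron 7 segment together held 57.0% of the gene's score times length in control and 26.6% after IL-4. The sum was therefore carried by few segments in control and spread over more of the gene after IL-4.

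Further 3′, an exon 12 segment scored 0.7 in control, and its longer IL-4 counterpart scored 2.1. In intron 21 a segment of 210 bp scored 0.9 in control, and one of 235 bp scored 3.9 after IL-4. The last control segment, at exon 26, scored 0.3 and ended 6679 bp before the annotated gene end. Its IL-4 counterpart scored 1.0, and 12 IL-4 segments lay in or reached into the last 10.3 kb of the gene, the last one ending 163 bp before the gene end.

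Of the 21 control segments, 20 had an overlapping IL-4 segment, and all 20 of these scored higher after IL-4. Over the libraries this was so for 22.8% of 26998 such pairs. The difference was at least 2-fold in 19 of the 20 pairs, with or without the rounding range, where 8.99% of all pairs reached it. Scores here are as deposited, without centring. The ratio ran from 1.83 in intron 4 (0.6 and 1.1) to 7.5 in intron 9 (0.2 and 1.5), with a median of 4.42 in the gene and 0.8 over all pairs. Pairs that scored 0.1 in control had ratios of 4 to 7, and the pair that scored 2.7 had 4.85. Spearman's rho between both scores was 0.92 over the 20 pairs, which share a gene and a library. The IL-4 segment was the longer one in 20 of 20 pairs, against 71.8% over the libraries, and 16 pairs had starts within 25 bp of each other.

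**Figure D2:**
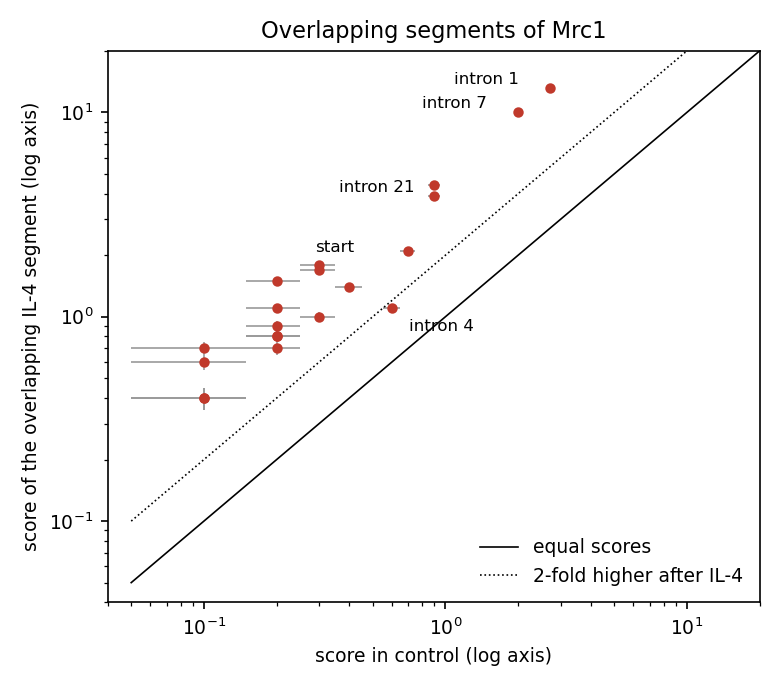
Score of the 20 control segments of Mrc1 with an overlapping IL-4 segment (x axis, log) against the score of that IL-4 segment (y axis, log), with bars for the rounding range of 0.05. Points lie above the solid line of equal scores in 20 of 20 pairs, and above the dotted line of a 2-fold difference in 19, the exception being intron 4.

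The single control segment without an IL-4 counterpart lay in intron 22 (14316022 to 14316134) and scored 0.3. It was 4.76% of the control segments of the gene, and 37.4% of all control segments had no counterpart. In the other direction 75 of 97 IL-4 segments (77.3%) had no control counterpart, against 48.1% of the library. Those 75 scored 0.1 to 1.5 with a median of 0.4 and a median length of 470 bp, and 7 of them scored at least 1. The 22 IL-4 segments that overlapped a control one scored 0.4 to 13.1 with a median of 1.05.

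Divided into 10 equal parts from the 5′ end, the gene was higher after IL-4 in all 10. In part 1 score times length was 682.2 in control and 11692.9 after IL-4, a 17.1-fold difference. Part 4, which holds intron 7, had 1136.5 and 13574.1, the lowest ratio at 11.9-fold. These were the parts with the highest sums in both libraries. Together they held 69.9% of the control sum and 49.9% of the IL-4 sum.

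The control sums of the other parts were lower, from 0 to 345.8. Part 2 had 61.8 in control and 3655.1 after IL-4, a 59.1-fold difference whose rounding range ran from 35.8 to 129, as both control segments there scored 0.1. Part 3 had 38.4 and 2651.4 (69.0-fold). Part 7, from 61.6 to 71.9 kb, held no control segment and 1062.8 after IL-4, so no ratio is given. Parts 5, 6 and 8 had ratios of 40.8, 24.5 and 34.2. Part 9, which holds most of intron 21, had 345.8 in control from 5 segments and 5558.1 after IL-4, a ratio of 16.1 that was close to that of part 1. In part 10 the sums were 47.1 and 2558.4, a ratio of 54.3 (41.1 to 72.9). Covered length ran from 0 to 12.0% of a part in control and from 26.3 to 77.03% after IL-4.

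**Figure D3:**
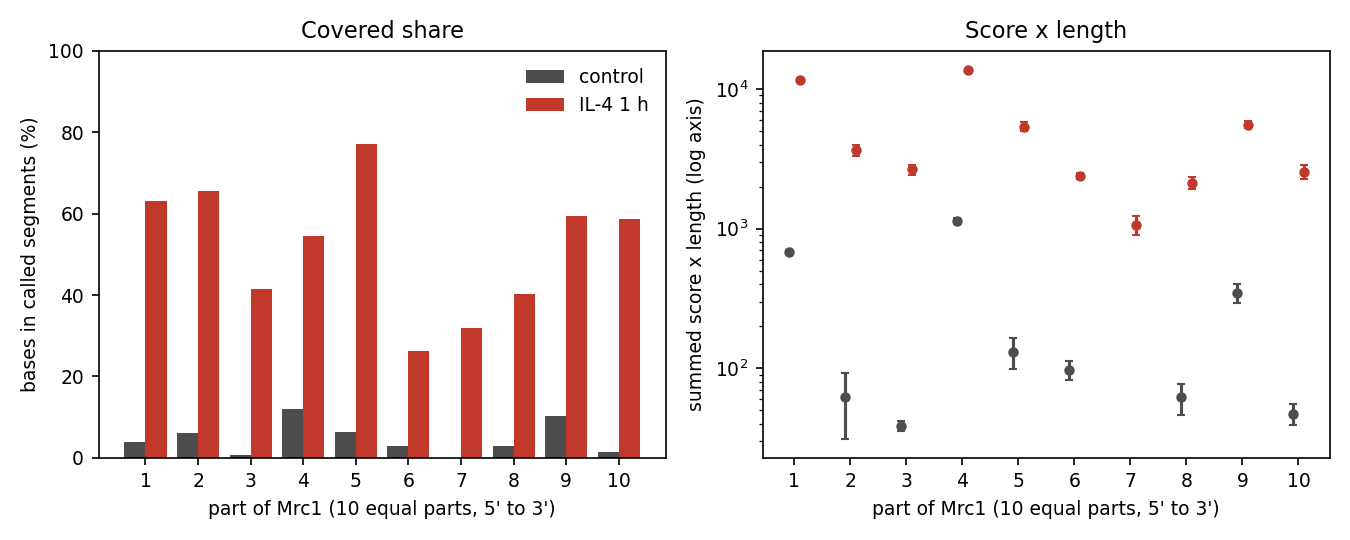
Percent of bases covered by called segments (left) and score times length with its rounding range (right, log axis), in 10 equal parts of Mrc1 from the 5′ to the 3′ end, for control and IL-4 1 hr. All 10 parts are higher after IL-4, and part 7 has no control segment.

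The balance of signal along the gene was compared by position. The mean position of a segment, weighted by score times length, was 36.8% of the gene length from the 5′ end in control and 39.3% after IL-4, a shift of 2.48 percentage points. The shift was 4.74 points with segments scoring at least 0.3 and 7.30 points without repeat-annotated segments. The repeat filter removes the highest IL-4 segment, at 6.76% of the gene length, with a score times length of 6694.1. Its control counterpart (634.5) is kept, so this removal moves only the IL-4 position toward the 3′ end. That counterpart was a larger part of its sum (634.5 of 2602.4) than the IL-4 segment was (6694.1 of 50619.9). Leaving out both would thus move the control position further toward the 3′ end than the IL-4 position. No shift was computed without both segments, so its direction is not settled. Parts 1 to 5 held 78.8% of the sum in control and 73.0% after IL-4. Among 498 genes of at least 50 kb with at least 10 segments in each library, the median position was 38.4% and 38.8%, the middle 80% of shifts ran from -9.29 to 9.64 points, and 169 genes had a larger shift toward the 3′ end than Mrc1. With lengths alone as weights the position was 47.3% and 47.8%, a shift of 0.46 points.

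Most of the segments were intronic. By the deposited annotation 16 of 21 control segments and 81 of 97 IL-4 segments lay in introns, and 4 and 12 in exons. Control segments touched 7 of 30 exons and 13 of 29 introns, and IL-4 segments touched 27 exons and 28 introns. Intron 18 and exons 18, 19 and 29 held no segment after IL-4. Exons make up 5.23% of the gene, and segments covered 15.4% of exon bases and 4.08% of intron bases in control. After IL-4 they covered 82.9% and 50.1%. Repeat annotation was given to 8 control segments (38.1%, against 28.1% of the library) and to 23 IL-4 segments (23.7%, against 26.0%).

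The largest introns were unevenly filled. Intron 1 (8552 bp) was covered to 2.75% in control and 62.0% after IL-4. Intron 11 (9002 bp) and intron 15 (9166 bp) held no control segment and were covered to 16.1% and 22.5% after IL-4. Intron 3 (4515 bp) also had no control segment, and 66.4% of it was covered after IL-4.

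Mir511 lies in intron 5 at 14261003 to 14261081. In control no segment held it, the nearest ones ending 10.6 kb upstream and starting 2.32 kb downstream. After IL-4 a segment of 399 bp (14260970 to 14261368) with a score of 0.6 ran across the whole hairpin. Its score was near the gene's median of 0.5. Gene names in the deposited annotation follow the nearest start: 16 control and 71 IL-4 segments of the gene carried the name Mir511, 4 and 17 the name Mrc1, and 1 and 9 the name of the downstream zinc transporter gene Slc39a12.

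Plus-strand signal went on past the annotated end. Within 50 kb downstream, control had 2 segments, a 240 bp one scoring 0.1 and a 750 bp one (14335833 to 14336582) scoring 0.5. IL-4 had 5, and the one at the same place as the second control segment ran for 1645 bp (14335820 to 14337464) and scored 2.3. The last segment ended 4.53 kb past the gene in control and 6.96 kb past it after IL-4, and the downstream sums were 399 and 4390.8, a ratio of 11.0. No further plus-strand segment followed within the 50 kb.

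Of the 11 other annotated genes within 200 kb, 2 held segments on their own strand in both libraries, as did 7307 of all 55450 annotated genes. Stam, which encodes an adaptor of cytokine receptor signalling and endosomal sorting, had a score times length of 66.6 in control and 135.5 after IL-4, or 0.92 as centred log2 ratio. Stamos, beside it on the opposite strand, had 53.1 and 96, or 0.75. Both were under 2-fold after centring, Stam was 2.03-fold higher without it, and both values rest on 1 or 2 segments. Tmem236, directly upstream of Mrc1 on the same strand, and Slc39a12 held none.

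Mrc1 was compared with genes of similar size per kb of gene, since score times length grows with the gene. It had 25.3 per kb in control and 493 after IL-4. Among genes of at least 50 kb it ranked 145 of 2318 in control, where the median was 2.92, and 5 of 2332 after IL-4, where the median was 2.54. By the covered share of the gene it ranked 232 in control and 4 after IL-4, with medians of 0.917% and 1.10%. Of the 2111 such genes with a value in both libraries, 335 were at least 2-fold higher, and Mrc1 ranked 12 by centred ratio. The gene thus stood well above the median long gene before IL-4 as well.

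**Figure D4:**
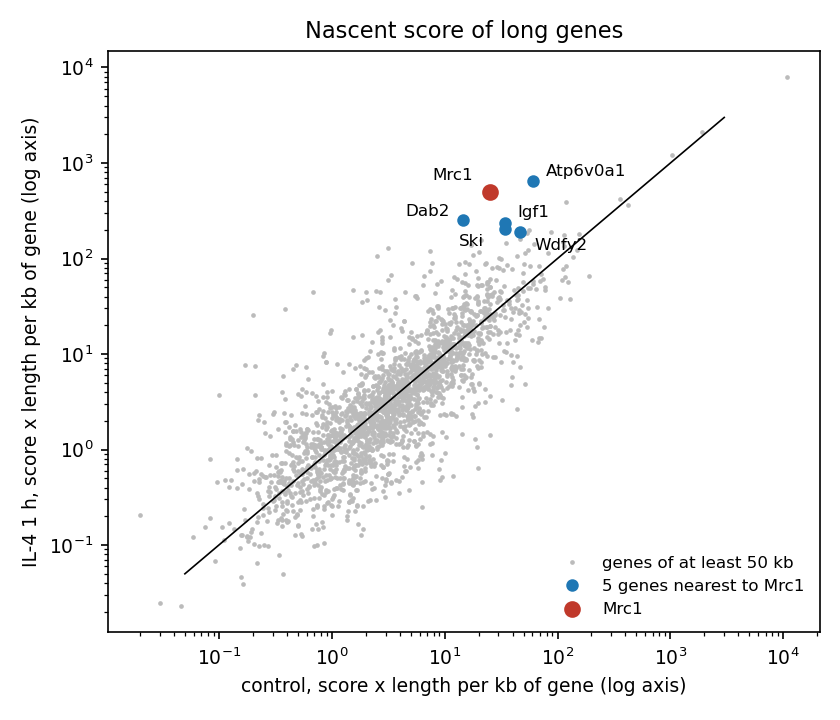
Score times length per kb of gene in control (x axis, log) and after IL-4 1 hr (y axis, log) for genes of at least 50 kb with a value in both libraries. Mrc1 lies at 25.3 and 493, above the line of equal values. The 5 genes nearest to it were chosen by these same values, so their place above the line follows from the choice.

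The 5 genes of at least 50 kb nearest to Mrc1, by Euclidean distance over the log2 values per kb of both libraries (2110 genes ranked), were Igf1, Dab2, Atp6v0a1, Ski and Wdfy2. Igf1, the insulin-like growth factor gene, had 34.3 per kb in control and 234 after IL-4 (distance 1.16, centred log2 ratio 2.67). Dab2, which encodes a clathrin adaptor for endocytosis, had 14.7 and 255 (distance 1.24, ratio 4.02). Atp6v0a1, a subunit of the vacuolar proton pump, had 60.7 and 654 (1.32 and 3.33). Ski, a transcriptional corepressor of TGF-beta signalling, had 34.2 and 202 (1.36 and 2.46), and Wdfy2, an endosomal protein, had 46.7 and 191 (1.63 and 1.93). The nearest gene of at least 50 kb was thus more than 1 log2 unit away, and shorter genes were not ranked. Likeness over 2 libraries is a description of these values only.

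Within the mannose receptor family, Mrc1 was the member with segments. Mrc2 (Endo180), Ly75 (DEC-205) and Pla2r1 (the phospholipase A2 receptor) had none in either library, which for a list of called segments means only that none was called.

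Of 24 genes known to respond to IL-4 in macrophages, 8 had segments in both libraries, and 6 of these were at least 2-fold higher after IL-4, 0 lower and 2 in between (Stat6, -0.39, and Pparg, -0.01). The median centred log2 ratio of the 8 was 2.97, against 17.4% of all genes at least 2-fold higher and a median of 0 by construction. Another 8 had segments after IL-4 and none in control, 0 the reverse, and 8 had none in either. Of all 9776 genes with segments in at least 1 library, 14.2% had them after IL-4 only and 11.1% in control only. The 4 with the highest sums follow. Il4ra, the IL-4 receptor alpha chain, had a score times length of 1006.1 in control and 12067.2 after IL-4 (3.48). Socs1, a feedback inhibitor of cytokine signalling, had 86.4 and 4227.5 (5.51). Ppargc1b, a coactivator of oxidative metabolism, had 370.2 and 3891.8 (3.29), and the lectin gene Clec10a had 1019.9 and 2524.8 (1.21). Per kb of gene Il4ra was near Mrc1, at 36.8 in control and 441 after IL-4.

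The labelled cell type was checked against its markers. All 10 annotated macrophage markers on the list had segments in both and were under 2-fold after centring, as were 65.1% of all genes with a value in both. Segments in both libraries were found for 7307 of the 55450 annotated genes. Without centring Itgam was 2.02-fold higher. The 10 had a median centred log2 ratio of 0.06 and a summed value per kb of 2368 in control and 2433 after IL-4. No segment was called in the T cell (3), B cell (3), fibroblast (5) and dendritic cell (2) markers. Most annotated genes had none either, as 9776 of 55450 had segments in at least 1 library. Of 3 neutrophil markers, S100a8 had 103.3 and 141, Mpo had segments in control only and Ly6g had none. In such bulk libraries, fewer cells of a type and less RNA per cell cannot be told apart.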

How the data were processed

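The authors aligned GRO-seq reads to mm10 and called transcripts in each library separately with HOMER in its GRO-seq mode. The submitters' processing notes name BWA 0.7.10, SAMtools 0.1.19 and HOMER 4.2. The deposited score of each called transcript, in a column headed as a peak score, is rounded to 1 decimal. How it was scaled is not given in the sources used here, and read depth is unknown, so no interval on counts can be given.

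Gene bounds and exons were taken from GENCODE M21 (same build). A gene's value was the sum of score times length over same-strand segments lying within it. Log2 ratios of IL-4 over control were centred on the median gene with a value in both libraries, and 2-fold was the limit for a call. Without a replicate (n = 1 per condition) no test was run. Segments were paired by the largest overlap, at least 1 bp on the same strand. Rounding ranges move each score by 0.05.

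The gene, the gene lists and the markers were chosen with earlier results of these data known. By rule the text names Mrc1, its receptor family, up to 4 IL-4 response genes with the highest sums, annotated genes within 200 kb and the 5 long genes (at least 50 kb) most like Mrc1. The promoter and miRNA sequences are from RefSeq (GRCm38.p6). The gene ratios were tested on control scores multiplied by known factors, with recovery checked for raised and unchanged genes. Segment bounds were kept there, so differences in segment calling were not tested. The computation ran on Python 3.11.15, numpy 2.4.6, pandas 2.3.3 and matplotlib 3.10.9. Alternatives varied the assignment of segments, the gene value, the scaling and the filters on score and repeats.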

Additional observations from a re-analysis of the deposited data

How the results depend on the processing

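The centred log2 ratio of Mrc1 (4.18) stayed above 2-fold under all 11 alternatives tried, from 2.16 to 4.57. It was 3.33 with the sum of scores, 2.69 with the highest score, 4.57 with segments scoring at least 0.3, 3.93 without repeat-annotated segments and 2.16 on bases called in both libraries. The last of these was chosen after seeing the data, as was leaving out the pair with the highest IL-4 score (4.38). Named, overlapping, uncentred, library-scaled and start-excluded versions lay between 4.09 and 4.28.

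With segments scoring at least 0.3, or without repeats, the covered length ratio was 21.7 or 15.4 in place of 11.1. The mean score ratio was 1.04 or 1.10 in place of 1.75. The position shift was 4.74 or 7.30 points in place of 2.48, positive values pointing to the 3′ end. By length alone the shift was 0.46 points. The ratio of highest scores was 3.70 without repeats in place of 4.85, because the repeat filter removes the highest IL-4 segment and keeps its control counterpart, which is annotated as plain intron. The same uneven removal enters the mean score ratio and the shift without repeats, and neither was computed with both segments left out. The direction of the shift is thus not settled by these alternatives. The score filter is uneven too, keeping 11 of 21 control segments and 79 of 97 IL-4 segments. The mean score ratios near 1 therefore do not show equal scores, and on bases covered in both libraries the ratio was 4.78. The ratio of the sums stayed above 2-fold under either filter. By highest score, 636 genes were at least 2-fold lower in place of 1275, and 897 higher in place of 1273. Without centring the numbers were 1145 and 1433. The cause of these differences was not tested unless stated.

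No paired analysis was possible because each condition has 1 library. Ratios over control segments scoring 0.1 carry the widest rounding ranges, and with unknown depth the signal between called segments cannot be given.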
